A study of Mus musculus with 24 samples.

Results

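The 10 genes described here encode CC chemokines that macrophages can make: Ccl2, Ccl7, Ccl12, Ccl3, Ccl4, Ccl5, Ccl6, Ccl9, Ccl17 and Ccl22. They were chosen by symbol, as the rows of the deposited count table whose Ensembl identifier carries one of these names in GENCODE M21, and are 10 of the 22165 genes in the table and 10 of the 30 whose name is Ccl with a number. The rule uses no measured value. All 10 passed the filter on low counts and were tested with the other genes, 11878 in all.

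CC chemokines are small secreted proteins, named for a pair of neighbouring cysteines near their start, that bind G protein-coupled receptors and draw leukocytes along a gradient. In macrophages, lipopolysaccharide (LPS), a component of the outer membrane of Gram-negative bacteria, is sensed by Toll-like receptor 4 and switches on many chemokine genes through NF-kappaB and interferon regulatory factors. Cells that have met LPS once often answer a later dose differently, which is called endotoxin tolerance, and the samples allow this to be followed gene by gene with and without Irg1, the enzyme that makes itaconate.

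Macrophages grown from bone marrow (BMDMs) were profiled by bulk RNA-seq from WT C57BL/6N mice and from Irg1-/- mice on the same background, aged 8 to 20 weeks, whose bone marrow had been cultured for 7 days with 20 ng/mL M-CSF, the growth factor that drives macrophage differentiation. In each genotype, cells were left without LPS (Unstim.), were kept 24 h without LPS, washed, rested for 1 h and then exposed to LPS at 100 ng/ml over 3 h (LPS 3h, the non-tolerized control), were given LPS for 24 h and harvested at once (LPS 24h), or were given LPS for 24 h, washed, rested for 1 h and given LPS again for 3 h (LPS 24h->LPS 3h, tolerized). LPS 24h cells therefore lacked the change of medium and rest before harvest, and the labels do not say whether Unstim. cells had them, so that step and LPS cannot be told apart in comparisons with these groups. There were 3 independent cultures in each of the 8 groups, per the study's methods, and 24 libraries in all. The number of mice behind the cultures is not given in the sources used here, so p-values measure the spread between these cultures.

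Libraries held 3927378 to 20430359 reads on genes, with a median of 11539055, and the 10 genes took between 0.0622% and 1.34% of them. Levels are given as normalized CPM, read counts per 1e6 reads after scaling by edgeR's TMM factors. The protocol reads the 3′ ends of transcripts and PCR copies were counted as reads. Acod1, the gene that makes Irg1, was at 15643 to 28063 normalized CPM in WT LPS 3h cultures and at 1.58 to 26.4 in Irg1-/- LPS 3h cultures; in Unstim. cultures the ranges were 5.82 to 10.0 and 7.79 to 11.9. The 9 macrophage markers, such as Adgre1, Csf1r and Cd68, were all detected in every group, with a summed level of 3377 to 10109 normalized CPM. The lowest sum was in WT LPS 24h, which ranged from 3377 to 8111. The next lowest group minimum was 5810, in WT LPS 24h->LPS 3h. A pair of libraries stood apart from the rest of their group in the share of reads on the 10 genes, WT LPS 24h replicate 3 (0.202% against 0.898% and 0.687%) and WT LPS 24h->LPS 3h replicate 3 (0.515% against 0.912% and 1.20%), so results that rest on them are given with and without them. Across genes, log2 levels of libraries of one group correlated at 0.902 to 0.975, lowest between the Irg1-/- Unstim. libraries and at 0.914 and 0.933 for the first of these libraries with the others of its group. Libraries were pooled before PCR, and the labels carry 1 of 4 prefixes, which is taken here as the pool although the sources do not say so. All Unstim. libraries were in pool 4 and no Irg1-/- library with LPS was, so in Irg1-/- cells pool and LPS cannot be told apart. The pair of WT libraries that stood apart was in pool 4 too. What set them apart and pool cannot be told apart in comparisons with Irg1-/- cells.

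Of the 10 genes, 8 lie on chromosome 11 in 2 runs and the other 2 on chromosome 8 (GRCm38, GENCODE M21). The first run holds Ccl2 (ENSMUSG00000035385.5, chr11:82035571-82037453, plus strand), Ccl7 (ENSMUSG00000035373.2, chr11:82045712-82047525, plus strand) and Ccl12 (ENSMUSG00000035352.3, chr11:82101845-82103400, plus strand). The second holds Ccl5 (ENSMUSG00000035042.2, chr11:83525778-83530518, minus strand), Ccl9 (ENSMUSG00000019122.8, chr11:83572919-83578636, minus strand), Ccl6 (ENSMUSG00000018927.3, chr11:83587882-83593087, minus strand), Ccl3 (ENSMUSG00000000982.5, chr11:83647844-83649355, minus strand) and Ccl4 (ENSMUSG00000018930.3, chr11:83662584-83664683, plus strand). On chromosome 8 lie Ccl22 (ENSMUSG00000031779.3, chr8:94745590-94751699, plus strand) and Ccl17 (ENSMUSG00000031780.1, chr8:94810453-94812036, plus strand). The counts cover each gene's exons. The span of Ccl2 is overlapped by Gm17268 and that of Ccl6 by E230016K23Rik, both on the opposite strand and with 0 shared exonic bases. Whether the counting used strand, and how reads shared by related chemokine genes were treated, is not given in the sources used here.

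Promoter sequences from RefSeq (GRCm38.p6) were matched for 6 of the 10 genes, Ccl12, Ccl3, Ccl6, Ccl9, Ccl17 and Ccl22; Ccl2, Ccl4, Ccl5 and Ccl7 had no entry. The windows of 4 genes are shown because the calls for these genes differed: Ccl9 rose at LPS 3h, its neighbour Ccl6 was not called then and fell later, Ccl3 rose and was at 1.98% (WT) and 1.11% (Irg1-/-) of that level at LPS 24h, and Ccl12 rose and was at 69.4% of that level at LPS 24h in WT and 21.6% in Irg1-/- cells. Each window is the 150 bases before the annotated start, written 5′ to 3′ on the gene's own strand, and capitals mark matches to a kappaB motif (GGGNNNTTCC), an AP-1 motif (TGANTCA) or an interferon-stimulated response element (GAAANNGAAA), searched on both strands.
Ccl9, chr11:83578637-83578786, minus strand: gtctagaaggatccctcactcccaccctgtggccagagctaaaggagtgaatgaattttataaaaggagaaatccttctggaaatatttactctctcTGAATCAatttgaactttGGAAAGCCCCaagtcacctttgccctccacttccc
Ccl6, chr11:83593088-83593237, minus strand: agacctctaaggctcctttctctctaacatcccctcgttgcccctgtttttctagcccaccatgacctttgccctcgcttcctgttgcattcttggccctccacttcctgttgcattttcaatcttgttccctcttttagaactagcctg
Ccl3, chr11:83649379-83649528, minus strand: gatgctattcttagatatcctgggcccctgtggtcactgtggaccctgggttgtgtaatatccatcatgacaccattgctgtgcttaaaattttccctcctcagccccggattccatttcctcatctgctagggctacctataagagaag
Ccl12, chr11:82101695-82101844, plus strand: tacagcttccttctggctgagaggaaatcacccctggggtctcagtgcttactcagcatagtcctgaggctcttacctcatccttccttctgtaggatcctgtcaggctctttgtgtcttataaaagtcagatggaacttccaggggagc
The Ccl9 window held an AP-1 match from position -53 and a kappaB match on the other strand from position -35, counted back from the start, and these did not overlap. The windows of the other 5 genes held 0 matches to these letters. Among all 32851 windows of this length, 3.05% held the kappaB motif, 4.24% the AP-1 motif and 1.59% the interferon motif, so a match is a description of the letters and not a site.

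The first LPS exposure raised most of these genes. In WT cells, 8 of the 10 were higher at LPS 3h than in Unstim. and 0 were lower, beside 15.8% of all genes tested that were higher and 16.3% that were lower. Irg1-/- cells had 9 higher and 0 lower, beside 17.0% and 18.9%. Ccl22, called in both genotypes, and Ccl17, called in Irg1-/- cells, passed the filter on low counts through their LPS 3h libraries. They had at most 15 and 8 reads over any other group. The filter thus favoured a level that is higher at LPS 3h for these genes, here and in the comparisons with LPS 3h below. The median log2 fold change of the 10, Ccl17 and Ccl22 included, was 7.52 in WT and 6.69 in Irg1-/-, and that of all genes was -0.18 and -0.20. Tests are edgeR's quasi-likelihood tests with Benjamini-Hochberg adjustment over all genes, and a gene is called where its adjusted p is under 0.05. The comparisons of one genotype share groups with each other.

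**Figure D1:**
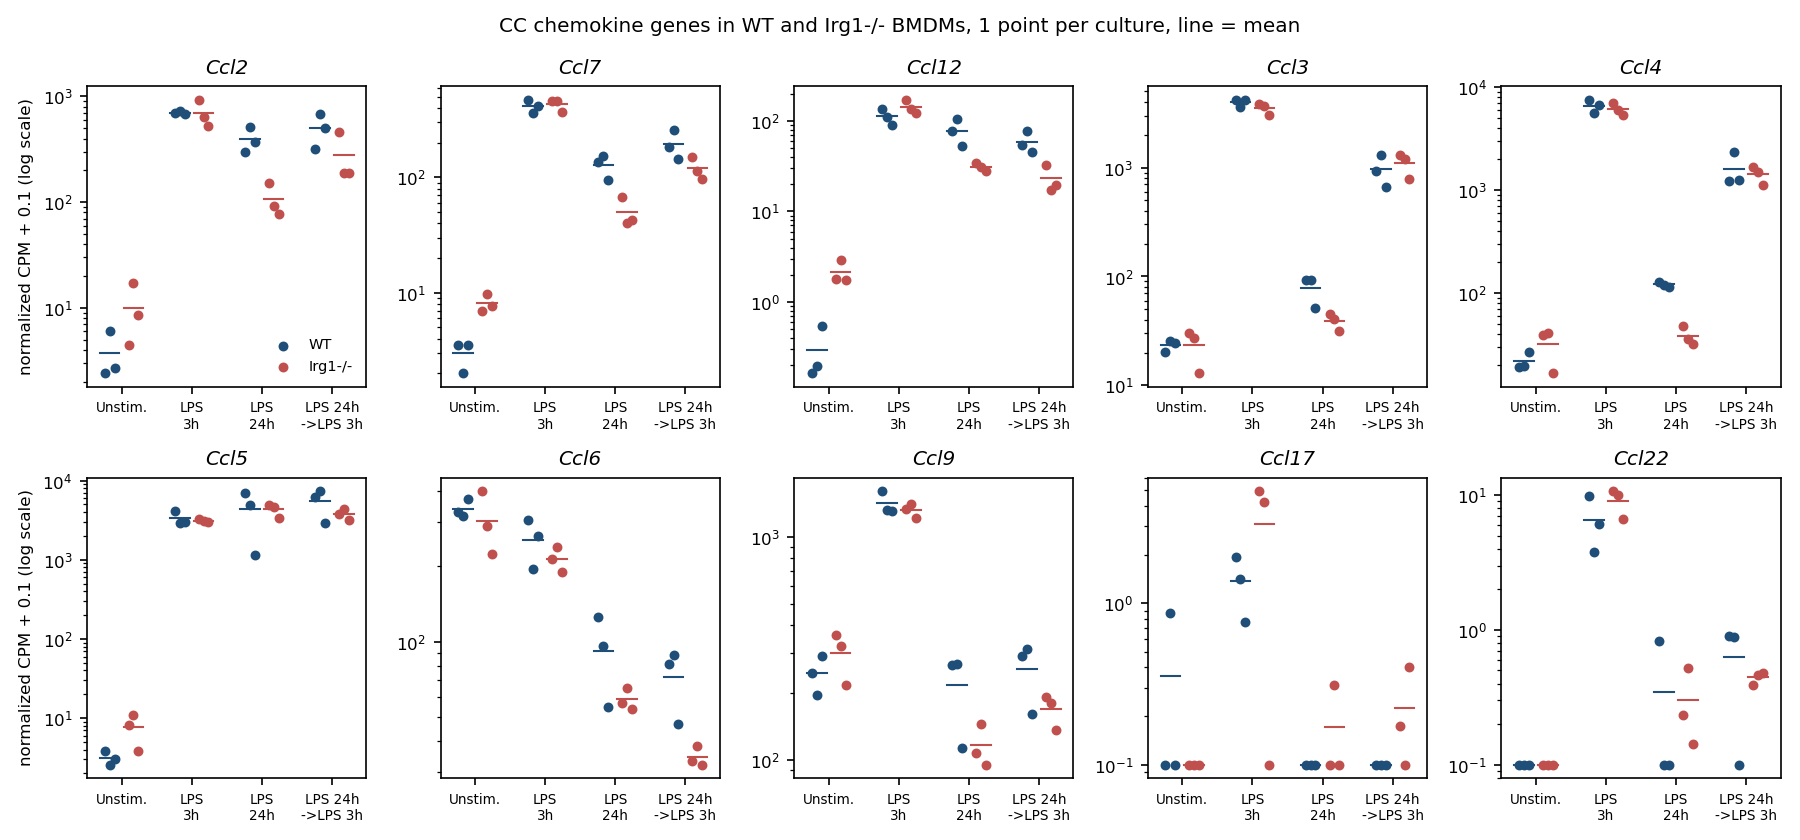
Normalized CPM of the 10 genes in each culture, plotted as the level plus 0.1 on a log axis, with WT in blue, Irg1-/- in red and a line at each group's mean. Ccl3 and Ccl4 rose at LPS 3h, were 0.631% to 1.98% of that level at LPS 24h and rose again on restimulation, whereas Ccl5 stayed high in the LPS 24h and LPS 24h->LPS 3h groups.

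The ligands of Ccr2, the receptor that brings inflammatory monocytes out of bone marrow and into tissue, are Ccl2, Ccl7 and Ccl12. Ccl2, the main mouse monocyte attractant, was at 2.32, 6.01 and 2.58 normalized CPM in the 3 WT Unstim. cultures, 691, 733 and 676 at LPS 3h, 298, 518 and 371 at LPS 24h and 320.4, 689 and 498 at LPS 24h->LPS 3h. In Irg1-/- cultures it was at 4.36, 17.0 and 8.46, 932, 634 and 521, 153, 91.1 and 77.2 and 461, 191 and 187 in the same order. Every culture with LPS was above every Unstim. culture, and in Irg1-/- cells the LPS 24h cultures lay below all others that had received LPS. The log2 fold change at LPS 3h was 7.61 ± 0.55 (SE, adjusted p = 1.4e-12) in WT and 6.15 ± 0.52 (SE, adjusted p = 4.2e-11) in Irg1-/- cells. Ccl7, which also binds Ccr2, was at 3.41, 1.91 and 3.41 in WT Unstim., 472, 362 and 419 at LPS 3h, 135, 153 and 94.2 at LPS 24h and 182, 259 and 145 after restimulation, and in Irg1-/- cells at 6.86, 9.61 and 7.60, 460.0, 457 and 371, 67.7, 39.8 and 42.4 and 150.3, 114 and 97.0. It rose at LPS 3h by 7.14 ± 0.39 (SE, adjusted p = 2.2e-15) in WT and by 5.75 ± 0.36 (SE, adjusted p = 7.3e-14) in Irg1-/- cells, and its LPS 3h cultures were above those of every other treatment. Ccl12, a mouse relative of Ccl2 that lies between Ccl11 and Ccl8, was close to the detection limit in WT Unstim. cells, at 0.0644, 0.0955 and 0.439, and at 134, 111 and 90.9, 76.6, 104 and 52.7 and 53.6, 77.5 and 45.4 in the 3 LPS groups. The Irg1-/- groups were at 1.71, 2.83 and 1.66, 171, 135 and 122, 33.9, 30.7 and 28.0 and 32.8, 17.0 and 19.6. Its rise at LPS 3h was 8.88 ± 0.52 (SE, adjusted p = 9.1e-15) in WT and 6.15 ± 0.44 (SE, adjusted p = 1.0e-12) in Irg1-/- cells. The WT value rests on 1, 1 and 9 reads in the Unstim. libraries and was 10.33 (adjusted p = 6.4e-13) without the third of them. In these bulk samples, fewer cells that make a transcript and less of it per cell cannot be told apart.

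Ccl3 and Ccl4, inflammatory chemokines that attract monocytes and T cells, moved together: across the 24 libraries their log2 levels correlated at 0.996 (Pearson's r, a description, since the libraries share treatments). Ccl3 was at 20.1, 25.3 and 24.3 normalized CPM in WT Unstim., 4201, 3572 and 4179 at LPS 3h, 92.0, 93.0 and 51.7 at LPS 24h and 931, 1293 and 665 at LPS 24h->LPS 3h. The Irg1-/- cultures gave 30.4, 27.1 and 12.8, 3796, 3674 and 3037, 45.4, 40.3 and 31.3 and 1303, 1201 and 792. No treatment overlapped another in either genotype. Ccl4 was at 19.2, 19.4 and 26.6, 7500, 5532 and 6670, 128, 120.1 and 115 and 1232, 2324 and 1252 in the 4 WT groups and at 39.1, 40.7 and 16.6, 6974, 5962 and 5289, 47.7, 35.4 and 31.9 and 1675, 1506 and 1115 in the Irg1-/- groups. In Irg1-/- cells the LPS 24h cultures overlapped the Unstim. cultures for Ccl4, and all other treatments were separate. The log2 rise at LPS 3h was 7.42 ± 0.41 (SE, adjusted p = 3.3e-15) for Ccl3 and 8.24 ± 0.42 (SE, adjusted p = 8.8e-16) for Ccl4 in WT, and 7.23 ± 0.41 (SE, adjusted p = 7.4e-15) and 7.57 ± 0.41 (SE, adjusted p = 4.5e-15) in Irg1-/- cells.

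Ccl5, a ligand of Ccr1 and Ccr3 that attracts T cells as well as monocytes, had the largest fitted rise of the 8 genes on chromosome 11 in both genotypes. It was at 3.74, 2.48 and 2.93 normalized CPM in WT Unstim., 4182, 2945 and 3014 at LPS 3h, 6930, 4911 and 1153 at LPS 24h and 6251, 7362 and 2933 at LPS 24h->LPS 3h. The values in Irg1-/- cells were 8.10, 10.7 and 3.69, 3243, 3101 and 2987, 4864, 4701 and 3420 and 3767, 4334 and 3217. The third WT LPS 24h culture was the lowest of all cultures with LPS, and the other 17 ranged from 2933 to 7362. The rise at LPS 3h was 10.10 ± 0.61 (SE, adjusted p = 1.9e-14) in WT and 8.74 ± 0.58 (SE, adjusted p = 2.2e-13) in Irg1-/- cells.

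Ccl6 and Ccl9, rodent chemokines that act on Ccr1, were the only members with over 100 normalized CPM in Unstim. cells, and they parted after LPS. Ccl9 was at 245, 195 and 293 in WT Unstim., 1598, 1322 and 1302 at LPS 3h, 266, 269 and 113 at LPS 24h and 291, 313 and 159.7 at LPS 24h->LPS 3h, and in Irg1-/- cells at 362, 325 and 217, 1329, 1399 and 1207, 108, 145 and 95.1 and 192, 179 and 136. The LPS 3h cultures stood above all others. Its log2 rise at LPS 3h was 2.53 ± 0.33 (SE, adjusted p = 2.8e-07) in WT and 2.12 ± 0.33 (SE, adjusted p = 4.3e-06) in Irg1-/- cells. Ccl6, which lies next to Ccl9 on the same strand, was at 329, 318 and 373 in WT Unstim., 307, 194 and 266 at LPS 3h, 125, 95.7 and 54.4 at LPS 24h and 81.2, 88.6 and 46.5 at LPS 24h->LPS 3h, and in Irg1-/- cells at 399.7, 291 and 224, 214, 238 and 190.0, 56.6, 65.3 and 53.6 and 33.3, 37.9 and 32.0. At LPS 3h its log2 fold change of -0.41 ± 0.30 (SE, adjusted p = 0.32) in WT and -0.51 ± 0.30 (SE, adjusted p = 0.19) in Irg1-/- cells missed the threshold, with 95% intervals of -1.02 to 0.20 and -1.12 to 0.10.

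Ccl17 and Ccl22 bind Ccr4 and are made mainly by dendritic cells and by macrophages exposed to type 2 cytokines. They were counted in few reads, and Ccl22 had 0 reads in all 6 Unstim. libraries. At LPS 3h Ccl22 was at 9.84, 3.67 and 5.96 normalized CPM in WT and 10.6, 9.85 and 6.51 in Irg1-/- cultures, from 130 and 202 reads over the group. Set against 3 reads over the Unstim. group, this was 93.9-fold higher in WT (edgeR adjusted p = 4.5e-05) and 94.4-fold higher in Irg1-/- cells (adjusted p = 6.5e-05). These folds leave out the counting error of the LPS 3h reads. It fell to 6 and 9 reads over the group at LPS 24h and was at 15 and 14 after restimulation. Ccl17 had 26 reads over the WT LPS 3h group and 73 over the Irg1-/- one, of which 0 were in the third Irg1-/- culture, and 0 to 8 reads in every other group. In Irg1-/- cells its rise at LPS 3h, 34.1-fold over 3 reads in the Unstim. group, passed edgeR's test (adjusted p = 0.015), although the groups overlapped. The rise in WT did not pass (adjusted p = 0.31). Of 7 dendritic cell markers, Cd209a was at 0 in every group, and the summed level of the list, mostly Itgax, was 28.9 to 34.8 normalized CPM in WT Unstim., 24.1 to 31.4 at LPS 3h and 7.33 to 11.1 at LPS 24h. In Irg1-/- cultures the sum was 17.0 to 25.1, 19.2 to 28.6 and 4.97 to 6.76 in the same order. Zbtb46, a transcription factor of conventional dendritic cells, was at 1.11 to 2.46 in Irg1-/- LPS 3h cultures, 0 to 1.02 in Irg1-/- Unstim. cultures and 0 to 0.927 in WT LPS 3h cultures. Others of the list went both ways between Irg1-/- and WT LPS 3h cultures. Itgax was at 13.0 to 22.7 against 21.8 to 28.2, and Flt3 at 0 to 0.528 against 0.356 to 0.729. Siglech was higher, at 3.17 to 5.87 against 0.365 to 1.90, and Clec9a was at 0 to 1.11 against 0 to 0.474. The part of dendritic cells in the values was not tested.

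Within pool 4, the pool that the third WT LPS 3h culture shares with the Unstim. cultures, the differences of log2 CPM at LPS 3h were 7.60 for Ccl2, 7.13 for Ccl7, 7.49 for Ccl3, 8.27 for Ccl4, 9.89 for Ccl5 and 2.43 for Ccl9. They were 8.06 for Ccl12, below the fitted 8.88 over all cultures, and 5.13 for Ccl22, both near 0 in Unstim. cells, where the prior count of 2 in log2 CPM makes a difference smaller.

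After 24 h of continuous LPS the genes had parted. In WT cells 6 of the 10 were above Unstim. (Ccl2, Ccl7, Ccl12, Ccl3, Ccl4 and Ccl5) and Ccl6 was below it, where 9.25% of all genes were higher and 6.98% lower. In Irg1-/- cells 4 were above Unstim. (Ccl2, Ccl7, Ccl12 and Ccl5) and 2 below it (Ccl6 and Ccl9), beside 7.31% and 6.38%. The median log2 fold change of the 10 genes was 3.44 in WT and 2.71 in Irg1-/- cells, and that of all genes was 0.00 in both. The log2 change from Unstim. in WT was 10.46 ± 0.62 (SE, adjusted p = 1.1e-13) for Ccl5, 8.35 ± 0.51 (SE, adjusted p = 1.6e-13) for Ccl12 and 1.76 ± 0.32 (SE, adjusted p = 1.3e-04) for Ccl3. Ccl6 changed by -1.89 ± 0.31 (SE, adjusted p = 2.6e-05) in WT and -2.38 ± 0.31 (SE, adjusted p = 1.0e-06) in Irg1-/- cells. For Ccl9 the change was -1.38 ± 0.32 (SE, adjusted p = 0.0023) in Irg1-/- cells and within 1 standard error of 0 in WT. Without WT LPS 24h replicate 3 the same 7 genes passed in WT, with Ccl5 at 10.85 (adjusted p = 6.8e-16) and Ccl6 at -1.68 (adjusted p = 2.5e-04).

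From LPS 3h to LPS 24h, 7 genes fell in WT cells and 0 rose, where 16.8% of all genes rose and 15.5% fell. Ccl7, Ccl3, Ccl4, Ccl6, Ccl9, Ccl17 and Ccl22 were the 7, and Ccl2, Ccl12 and Ccl5 did not pass. Ccl17 and Ccl22 passed the filter through LPS 3h, so their falls from it add no support to the count in either genotype. In Irg1-/- cells all but Ccl5 fell, 9 of 10, and 0 rose, beside 18.2% higher and 16.9% lower. The Irg1-/- groups of Ccl17 overlapped (two-sided exact permutation test, p = 0.4). The steepest falls in fitted log2 value among the 8 genes on chromosome 11 were those of Ccl4, -5.76 ± 0.38 (SE, adjusted p = 1.7e-12) in WT and -7.31 ± 0.41 (SE, adjusted p = 4.1e-14) in Irg1-/- cells, and Ccl3, -5.66 ± 0.38 (SE, adjusted p = 1.8e-12) and -6.49 ± 0.39 (SE, adjusted p = 1.4e-13). As a share of the LPS 3h mean, the LPS 24h mean of Ccl3 was 1.98% in WT and 1.11% in Irg1-/- cells, and that of Ccl4 was 1.84% and 0.631%. Ccl5 was at 128% of its LPS 3h mean in WT and 139% in Irg1-/- cells, and its log2 difference of 0.48 ± 0.41 (SE, adjusted p = 0.38) in Irg1-/- cells did not pass. Ccl2 was at 56.5% of its LPS 3h mean in WT and 15.4% in Irg1-/- cells, with log2 differences of -0.82 ± 0.41 (SE, adjusted p = 0.12) and -2.70 ± 0.44 (SE, adjusted p = 1.3e-05). Ccl12 was at 69.4% in WT and 21.6% in Irg1-/- cells, with log2 differences of -0.53 ± 0.34 (SE, adjusted p = 0.24) and -2.21 ± 0.35 (SE, adjusted p = 9.8e-06). The difference between genotypes in this change was not itself tested. Without WT LPS 24h replicate 3, Ccl5 in WT differed by 0.71 (adjusted p = 0.13) and Ccl3 by -5.53 (adjusted p = 8.8e-11).

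Neutrophil markers fell over the same interval: the 7 genes, among them Ngp, Ltf and Camp, summed to 70.9 to 112 normalized CPM in WT LPS 3h cultures and 2.10 to 8.77 in WT LPS 24h cultures, and to 75.6 to 104 and 3.48 to 6.49 in Irg1-/- cultures. Fibroblast markers, led by Col1a2, summed to 313 to 421 and 182 to 246 in WT and to 292 to 434 and 166 to 192 in Irg1-/- cultures. Endothelial markers stayed at or under 15.7 normalized CPM, T cell markers at or under 11.3, B cell markers at or under 2.45 and mast cell and basophil markers at or under 1.46. The part of other cells in the chemokine levels was not tested.

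Restimulation of tolerized cells addressed which genes answer a second dose of LPS. Against the first response (LPS 24h->LPS 3h against LPS 3h), 8 of the 10 genes were lower in WT and 0 higher, beside 13.1% of all genes lower and 12.4% higher. Among Irg1-/- cultures 8 were lower and 0 higher, beside 14.1% and 13.1%. In WT the 2 that were not called were Ccl2 and Ccl5, and in Irg1-/- cells they were Ccl5 and Ccl17. The counts include Ccl22 in both genotypes and Ccl17 in WT, whose lower level than at LPS 3h was favoured by the filter. The median log2 difference of the 10 was -1.93 in WT and -2.35 in Irg1-/- cells, and that of all genes was 0.13 and 0.12. The medians of the 10 include Ccl17 (-6.86 in WT and -4.48 in Irg1-/- cells) and Ccl22 (-3.63 and -4.66). The filter thus favoured lower medians too, and medians without these genes were not computed. Ccl3 and Ccl4 came back to 24.2% and 24.4% of their LPS 3h means in WT and to 31.4% and 23.6% in Irg1-/- cells. Their log2 differences were -2.05 ± 0.32 (SE, adjusted p = 1.6e-05) and -2.04 ± 0.32 (SE, adjusted p = 1.6e-05) in WT, and -1.67 ± 0.32 (SE, adjusted p = 1.8e-04) and -2.08 ± 0.32 (SE, adjusted p = 1.0e-05) in Irg1-/- cells. Ccl9 differed by -2.47 ± 0.33 (SE, adjusted p = 1.4e-06) in WT and -2.96 ± 0.34 (SE, adjusted p = 7.4e-08) in Irg1-/- cells, and Ccl6 by -1.83 ± 0.31 (SE, adjusted p = 4.4e-05) and -2.64 ± 0.32 (SE, adjusted p = 2.1e-07). Ccl5 was at 163% of its LPS 3h mean in WT and 121% in Irg1-/- cells, and its LPS 24h->LPS 3h cultures overlapped those of LPS 3h in both genotypes. Without WT LPS 24h->LPS 3h replicate 3, 6 genes were lower in WT, Ccl12 and Ccl17 being lost, and Ccl5 differed by 0.95 (adjusted p = 0.1), Ccl3 by -1.90 (adjusted p = 1.8e-04) and Ccl9 by -2.28 (adjusted p = 1.8e-05).

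Among the Ccr2 ligands, Ccl7 differed by -1.10 ± 0.30 (SE, adjusted p = 0.0063) in WT and -1.83 ± 0.30 (SE, adjusted p = 2.6e-05) in Irg1-/- cells. Ccl12 differed by -0.93 ± 0.34 (SE, adjusted p = 0.042) in WT, a call that was lost when only the compared groups were fitted (adjusted p = 0.051) and when any of 4 of the 6 WT cultures was left out (LPS 3h replicates 1 and 2 and LPS 24h->LPS 3h replicates 1 and 3, adjusted p up to 0.11), and by -2.63 ± 0.36 (SE, adjusted p = 1.5e-06) in Irg1-/- cells. Ccl2 differed by -0.48 ± 0.41 (SE, adjusted p = 0.41) in WT and by -1.32 ± 0.42 (SE, adjusted p = 0.018) in Irg1-/- cells, a call lost with pool as a term (adjusted p = 0.11) and without Irg1-/- LPS 3h replicate 1 or LPS 24h->LPS 3h replicate 2 or 3 (adjusted p 0.085 to 0.092). The difference between genotypes in this response passed for 0 of the 10 genes and 0.0% of all genes by edgeR's test, with 859 genes at an unadjusted p under 0.05. By DESeq2's Wald test it passed for 1, Ccl12 (adjusted p = 0.049), beside 0.214% of all genes by that test. Its log2 value was -1.70 ± 0.48 (SE, adjusted p = 0.33) for Ccl12 and -0.84 ± 0.58 (SE, adjusted p = 0.82) for Ccl2 (Irg1-/- minus WT), with 95% intervals of -2.67 to -0.72 and -2.02 to 0.35.

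**Figure D2:**
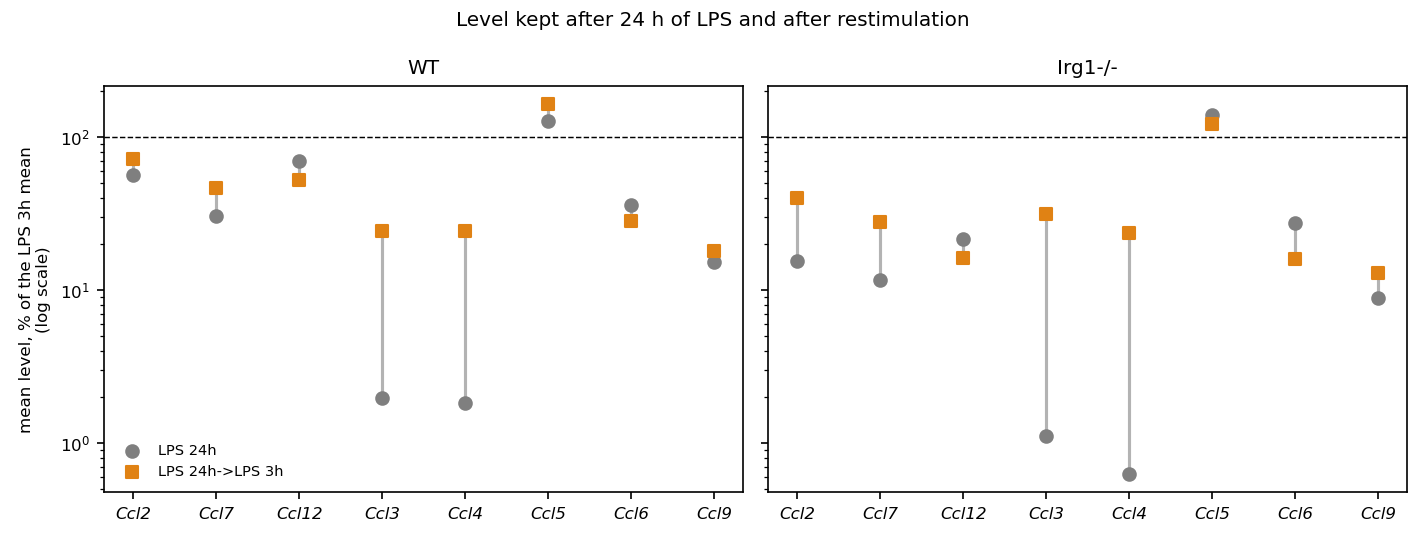
Mean level at LPS 24h (grey circles) and LPS 24h->LPS 3h (orange squares) as a percentage of the LPS 3h mean of the same genotype, on a log axis, for the 8 genes on chromosome 11, with 3 cultures behind each mean. Ccl3 and Ccl4 had the longest distance between the points, from 1.98% to 24.2% and from 1.84% to 24.4% in WT, and Ccl5 lay above 100% in both genotypes.

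Against cells harvested at the end of the first LPS exposure (LPS 24h->LPS 3h against LPS 24h), the calls narrowed to a few genes. The LPS 24h cultures lacked the wash and rest, so the level just before the second dose was not measured. In WT cells 2 of the 10 rose and 0 fell, Ccl3 by 3.61 ± 0.34 (SE, adjusted p = 4.4e-08) and Ccl4 by 3.73 ± 0.34 (SE, adjusted p = 2.9e-08), where 2.46% of all genes rose and 1.53% fell. In Irg1-/- cells 4 rose and 0 fell, beside 3.44% and 1.7%: Ccl3 by 4.82 ± 0.36 (SE, adjusted p = 1.9e-10), Ccl4 by 5.22 ± 0.37 (SE, adjusted p = 6.1e-11), Ccl2 by 1.38 ± 0.42 (SE, adjusted p = 0.047) and Ccl7 by 1.27 ± 0.30 (SE, adjusted p = 0.007). The rise of Ccl2 was no longer called with pool as a term (adjusted p = 0.17) or without any one of Irg1-/- LPS 24h replicates 2 and 3 and LPS 24h->LPS 3h replicate 1 (adjusted p 0.17 to 0.40), and that of Ccl7 was lost without LPS 24h replicate 2 (adjusted p = 0.052). Within pool 1, where 2 restimulated and 3 LPS 24h cultures of Irg1-/- cells were processed, the log2 differences were 4.65 for Ccl3, 5.09 for Ccl4, 0.88 for Ccl2 and 1.12 for Ccl7. In WT the 3 pairs of cultures within a pool gave 3.34, 3.79 and 3.68 for Ccl3 and 3.26, 4.27 and 3.44 for Ccl4. Without WT LPS 24h replicate 3 the WT rises were 3.43 (adjusted p = 1.2e-06) for Ccl3 and 3.74 (adjusted p = 1.0e-06) for Ccl4. The genotypes' difference in this rise passed for 0 of the 10 genes, beside 0.00842% of all genes, by edgeR's test and for 0 by DESeq2's, beside 0.68%, with 1029 genes at an unadjusted p under 0.05. It was 1.50 ± 0.44 (SE, adjusted p = 0.23) for Ccl4 and 1.21 ± 0.44 (SE, adjusted p = 0.38) for Ccl3, with 95% intervals of 0.60 to 2.39 and 0.31 to 2.11.

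Irg1-/- and WT cells were then compared within each treatment. At LPS 24h, 3 of the 10 genes differed and all 3 were lower in Irg1-/- cells, Ccl2, Ccl7 and Ccl4, beside 0.598% of all genes called. The median log2 difference of the 10 genes was -0.96 and that of all genes was -0.01. Ccl2 was at 153, 91.1 and 77.2 normalized CPM in Irg1-/- cultures and 298, 518 and 371 in WT cultures, a log2 difference of -1.88 ± 0.42 (SE, adjusted p = 0.029). Ccl7 was at 67.7, 39.8 and 42.4 against 135, 153 and 94.2, a difference of -1.35 ± 0.30 (SE, adjusted p = 0.027). Ccl4 was at 47.7, 35.4 and 31.9 against 128, 120.1 and 115, a difference of -1.66 ± 0.32 (SE, adjusted p = 0.011). The groups did not overlap for any of the 3, nor for Ccl12 (-1.33 ± 0.34 (SE, adjusted p = 0.065)) and Ccl3 (-1.02 ± 0.32 (SE, adjusted p = 0.16)), which missed the threshold. A two-sided exact permutation test of 3 cultures against 3 gave p = 0.1 for each of these 5 genes, the smallest it allows. The share of all genes whose groups did not overlap was not counted. A lack of overlap is therefore only a description, here and below.

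These calls at LPS 24h depended on the fit. With pool as a term 0 of the 10 genes passed (Ccl2, adjusted p = 0.20, Ccl7, 0.081, Ccl4, 0.055), with only the compared groups 0 passed (Ccl2, 0.22, Ccl7, 0.24, Ccl4, 0.20), and by DESeq2's Wald test 5 did, with Ccl12 and Ccl3 added, beside 3.45% of all genes by that test. Without Irg1-/- LPS 24h replicate 2 or 3, 0 passed, without WT LPS 24h replicate 2 only Ccl4 did, and without WT LPS 24h replicate 3 Ccl7 and Ccl4 did, with log2 differences of -1.50 (adjusted p = 0.045) and -1.66 (adjusted p = 0.043). Pool 1 held every Irg1-/- library of LPS 24h and 1 WT library of it, and the differences within that pool were -1.54 for Ccl2, -1.48 for Ccl7, -1.31 for Ccl12, -1.25 for Ccl3 and -1.76 for Ccl4. For Ccl5, Ccl6 and Ccl9 they were -0.70, -1.10 and -1.22. Ccl5 gave a difference within 1 standard error of 0 at LPS 24h, with a 95% interval of -0.83 to 0.83. That value rests in part on WT LPS 24h replicate 3, and without it the log2 difference was -0.42 (adjusted p = 0.89).

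At LPS 3h 0 of the 10 genes passed by edgeR's test, beside 0.00842% of all genes and 694 genes at an unadjusted p under 0.05, and 0 passed by DESeq2's test, beside 0.0438%. The 95% intervals of the log2 difference there were -0.84 to 0.82 for Ccl2, -0.82 to 0.45 for Ccl3, -0.74 to 0.52 for Ccl4 and -0.95 to 0.71 for Ccl5. At LPS 24h->LPS 3h 0 of the 10 passed by edgeR's test, beside 0.118% of all genes and 936 genes at an unadjusted p under 0.05. By DESeq2's test 2 passed, Ccl12 and Ccl6, beside 1.08% of all genes by that test. Ccl12 was at 32.8, 17.0 and 19.6 in Irg1-/- and 53.6, 77.5 and 45.4 in WT cultures, a log2 difference of -1.35 ± 0.34 (SE, adjusted p = 0.12). Ccl6 was at 33.3, 37.9 and 32.0 and 81.2, 88.6 and 46.5, a difference of -1.07 ± 0.30 (SE, adjusted p = 0.18). With the third WT culture left out the differences were -1.46 (adjusted p = 0.14) for Ccl12 and -1.26 (adjusted p = 0.12) for Ccl6. Neither pair of groups overlapped, and within pools 1 and 2 the differences were -1.55 and -1.24 for Ccl12 and -1.22 and -1.41 for Ccl6.

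In Unstim. cells 1 of the 10 genes passed, Ccl12, which was higher in Irg1-/- cultures, beside 0.0421% of all genes. The level was low, 1.71, 2.83 and 1.66 normalized CPM in Irg1-/- and 0.0644, 0.0955 and 0.439 in WT cultures, and the log2 difference was 3.07 ± 0.52 (SE, adjusted p = 0.018). The groups did not overlap, and the 6 libraries were in 1 pool. The call was lost when only the Unstim. groups were fitted (adjusted p = 1.0) and without any one of WT replicates 1 and 2 and Irg1-/- replicates 2 and 3 (adjusted p 0.052 to 0.15). Without WT replicate 3, which held 9 of the 11 WT reads, the difference was 4.50 (adjusted p = 0.0018). Ccl7, at 6.86, 9.61 and 7.60 against 3.41, 1.91 and 3.41, did not overlap either and differed by 1.43 ± 0.33 (SE, adjusted p = 0.13). For Ccl2 the difference was 1.46 ± 0.45 (SE, adjusted p = 0.44) and for Ccl5 1.25 ± 0.46 (SE, adjusted p = 0.65), with groups that overlapped. Of the 5 T cell markers in the table, which summed to 5.19 to 11.3 normalized CPM in Irg1-/- and 0.955 to 4.73 in WT Unstim. cultures, Cd4 made up nearly all, at 5.19 to 9.61 against 0.955 to 4.73, Cd3d was at 0 to 1.70 in Irg1-/- and 0 in WT, and Cd3e, Cd3g and Cd8a were at 0 in both. Siglech, on the dendritic cell list, was at 4.92 to 8.11 against 2.00 to 4.63. Itgax, which makes up most of that list, went the other way, at 11.1 to 19.3 against 26.5 to 29.1. The sum of the list was 17.0 to 25.1 in Irg1-/- and 28.9 to 34.8 in WT Unstim. cultures. The part of other cells in the result was not tested.

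**Figure D3:**
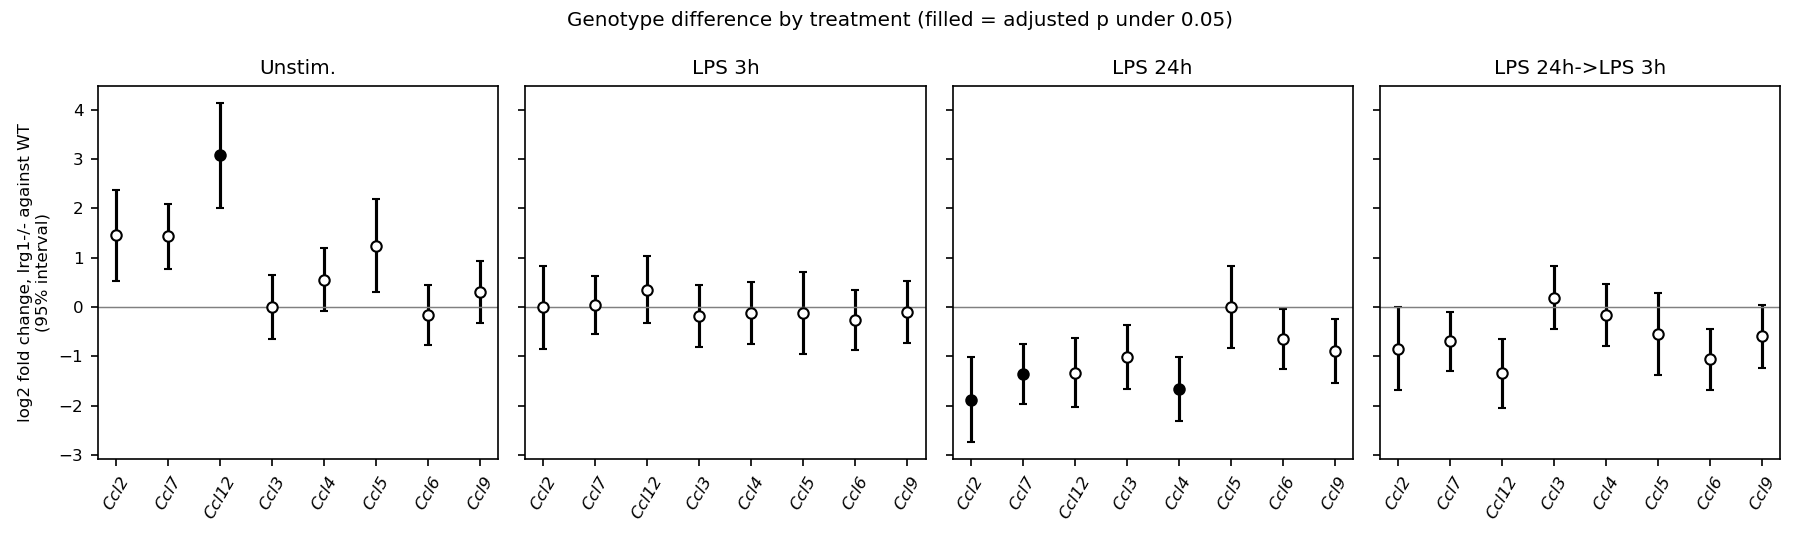
Log2 fold change of Irg1-/- against WT in each treatment for the 8 genes on chromosome 11, with 95% intervals from the fit over 24 libraries and filled points where the adjusted p was under 0.05. Values lay near 0 at LPS 3h, and at LPS 24h Ccl2, Ccl7 and Ccl4 were called lower in Irg1-/- cells. Ccl5 was at 0 there, and at -0.42 without WT LPS 24h replicate 3.

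Other genes of the pathway were taken from fixed lists of receptors, ligands and signalling genes. Of 11 CC chemokine receptor genes, 6 were tested, and Ccr1, Ccr2 and Ccr3 were among those that reached 10 normalized CPM in a group mean. In WT cells 3 of the 6 rose and 1 fell at LPS 3h, and 2 rose and 0 fell at LPS 24h against Unstim.; in Irg1-/- cells 0 rose and 1 fell at LPS 3h and 2 rose and 0 fell at LPS 24h. Of all genes, 15.8% rose and 16.3% fell at LPS 3h in WT, and 17.0% and 18.9% in Irg1-/- cells, and at LPS 24h the shares were 9.25% and 6.98% in WT and 7.31% and 6.38% in Irg1-/- cells. Ccr2, the receptor of Ccl2, Ccl7 and Ccl12, was at 35.4, 45.1 and 19.4 normalized CPM in WT Unstim. cultures, 12.2, 12.4 and 12.9 at LPS 3h, 18.7, 24.8 and 35.9 at LPS 24h and 13.0, 6.92 and 6.54 after restimulation. The Irg1-/- cultures were at 76.8, 46.6 and 90.9, 19.2, 14.6 and 18.1, 43.1, 48.1 and 54.9 and 14.3, 21.8 and 17.4 in the same order. They lay above the WT cultures without overlap in each of the 4 treatments, but the difference did not pass in any (at LPS 24h 0.88 ± 0.34 (SE, adjusted p = 0.31) and in Unstim. 1.11 ± 0.34 (SE, adjusted p = 0.41)). Ccr2 was low in both groups with a recent LPS dose, with a log2 change at LPS 3h of -1.41 ± 0.35 (SE, adjusted p = 0.002) in WT and -2.05 ± 0.35 (SE, adjusted p = 2.3e-05) in Irg1-/- cells, and on restimulation of -1.59 ± 0.35 (SE, adjusted p = 0.0057) and -1.45 ± 0.34 (SE, adjusted p = 0.0071). Ccr1, a receptor of Ccl3, Ccl5, Ccl6 and Ccl9, was at 9.28, 10.6 and 8.92 in WT Unstim. and 63.2, 76.8 and 57.0 in WT LPS 24h cultures. It rose at LPS 24h by 2.77 ± 0.36 (SE, adjusted p = 5.0e-07) in WT and 2.72 ± 0.36 (SE, adjusted p = 1.1e-06) in Irg1-/- cells. Ccr3, the receptor of eotaxins, rose at LPS 3h by 1.07 ± 0.35 (SE, adjusted p = 0.018) in WT. Ccr4, the receptor of Ccl17 and Ccl22, did not reach 10 normalized CPM in any group. Between genotypes 0 of the 6 receptors passed in any treatment by edgeR's test, and 0 to 2 by treatment had an unadjusted p under 0.05.

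Of 4 atypical and decoy receptor genes, only Ccrl2, which binds chemerin without signalling, passed the filter. It was at 11.5, 7.35 and 8.78 normalized CPM in WT Unstim., 566, 579.8 and 514 at LPS 3h, 57.8, 63.3 and 51.1 at LPS 24h and 211, 241 and 164 at LPS 24h->LPS 3h. No WT treatment overlapped another, and the order of the groups was that of Ccl3 and Ccl4. Restimulation raised it by 1.84 ± 0.28 (SE, adjusted p = 8.9e-05) in WT and 2.59 ± 0.29 (SE, adjusted p = 2.5e-07) in Irg1-/- cells.

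**Figure D4:**
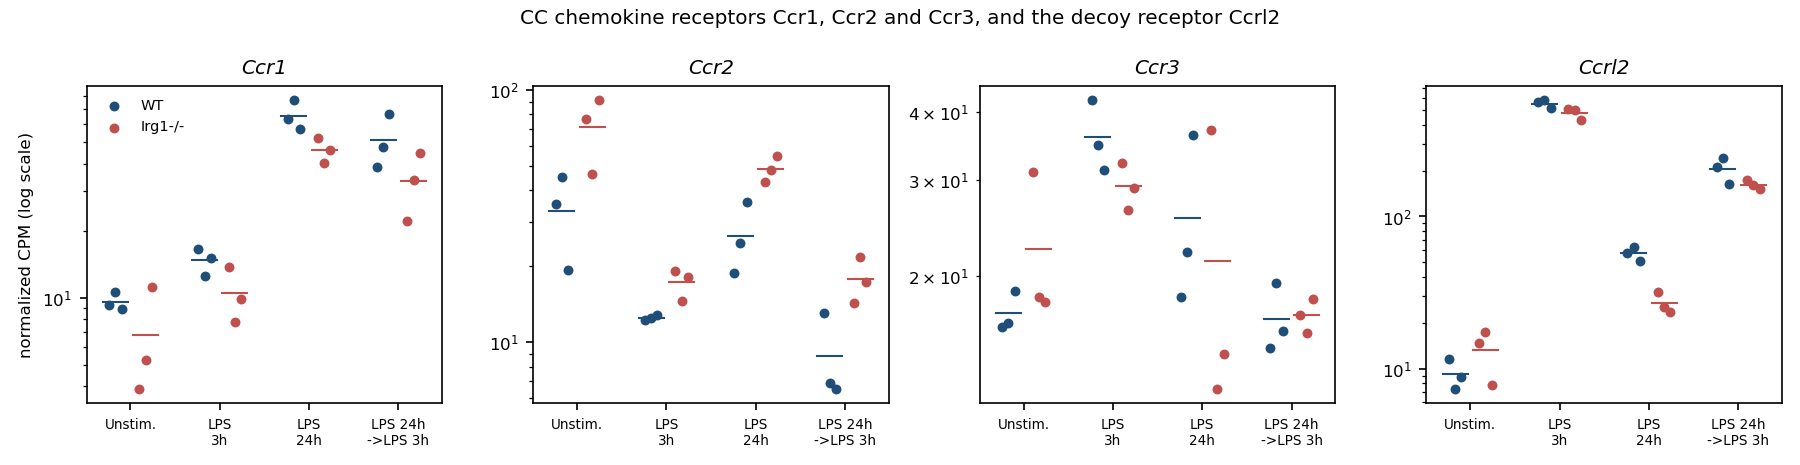
Normalized CPM in each culture, on a log axis, of the CC chemokine receptors Ccr1, Ccr2 and Ccr3 and of Ccrl2, with WT in blue, Irg1-/- in red and a line at each group's mean. The mean of Ccr1 was highest at LPS 24h, that of Ccr2 was lowest at LPS 3h and LPS 24h->LPS 3h, and Ccrl2 rose from 7.35 to 11.5 in WT Unstim. to 514 to 580 at LPS 3h.

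Among 11 other CC ligand genes, 4 were tested and only Ccl8, a monocyte attractant beside Ccl12, reached 10 normalized CPM. At LPS 3h 3 of the 4 rose and 0 fell in both genotypes, to be read beside the shares of all genes given for the receptors, as are the counts that follow. Ccl8 was between 1.32 and 3.53 in WT Unstim., 5.30 and 8.06 at LPS 3h and 24.4 and 49.1 at LPS 24h, so that its LPS 24h cultures were above its LPS 3h cultures (2.47 ± 0.48 (SE, adjusted p = 2.0e-04) in WT and 1.71 ± 0.46 (SE, adjusted p = 0.0047) in Irg1-/- cells). Of 17 genes for signalling from these receptors, all were tested and all reached 10 normalized CPM. At LPS 3h 5 rose and 6 fell in WT, and 6 rose and 7 fell in Irg1-/- cells. Grk3, a kinase that marks active receptors for arrestins, rose by 2.30 ± 0.39 (SE, adjusted p = 2.5e-05) in WT, and Arrb1 and Arrb2, the arrestins, changed by -2.87 ± 0.44 (SE, adjusted p = 5.4e-06) and -1.31 ± 0.31 (SE, adjusted p = 0.0015). Rgs1 and Rgs16, which speed the switching off of G proteins, rose by 1.39 ± 0.43 (SE, adjusted p = 0.012) and 3.35 ± 0.65 (SE, adjusted p = 1.3e-04), while Rgs2 and Rgs18, of the same family, changed by -2.53 ± 0.30 (SE, adjusted p = 5.7e-08) and -2.24 ± 0.38 (SE, adjusted p = 2.0e-05). At LPS 24h against Unstim. 2 rose and 3 fell in each genotype, and Rac2, a GTPase of cell movement, was among those that rose, by 1.84 ± 0.37 (SE, adjusted p = 4.3e-04) in WT. Between genotypes 0 of the 17 passed in any treatment by edgeR's test, and 0 to 4 by treatment had an unadjusted p under 0.05.

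Of 24 other genes within 100 kb of these chemokine genes or between them, 15 were tested. At LPS 3h 8 rose and 1 fell in WT, and 6 rose and 1 fell in Irg1-/- cells, beside the shares of all genes given above. Heatr9, which lies next to Ccl5 on the same strand, had 0 reads in the 3 WT Unstim. cultures and 30.5 to 53.1 normalized CPM at LPS 3h, 4.02 to 10.4 at LPS 24h and 3.90 to 18.8 at LPS 24h->LPS 3h. From LPS 3h to LPS 24h it changed by -2.60 ± 0.57 (SE, adjusted p = 8.5e-04) in WT, where Ccl5 was not called. Wfdc17, near Ccl3 and Ccl4, rose by 2.10 ± 0.39 (SE, adjusted p = 7.0e-05) at LPS 3h and was 2.88 ± 0.40 (SE, adjusted p = 1.8e-06) above Unstim. at LPS 24h in WT. Between genotypes 0 of the 15 passed in any treatment by edgeR's test, and 0 to 3 by treatment had an unadjusted p under 0.05.

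For each of the 10 genes, up to 2 of the other genes with the most similar log2 levels over the 24 libraries are given, among 8176 genes with at least 10 normalized CPM in a group mean. The libraries share treatments, so Pearson's r is a description here. Ccl3 was most like Tnf (0.989) and Marcksl1 (0.981), and Ccl4 was most like Tnf (0.988) and Ccrl2 (0.984). Ccl7 was most like Oasl1 and Oasl2 (both 0.981), and Ccl12 was most like Oasl2 (0.975) and Dhx58 (0.974). Ccl2 was most like Il1rn (0.971) and AA467197 (0.966), and Ccl5 was most like U90926 (0.987) and Zbp1 (0.981). Ccl6 was most like S100a9 (0.958) and Crip1 (0.957), and Ccl9 had an r of 0.951 with Rab9. Ccl22 was most like Tlr2 (0.951) and Ripk2 (0.950), while Ccl17, with few reads, reached only 0.802 with Ccdc6 and 0.794 with Dlgap4. Between members, r was 0.975 for Ccl2 and Ccl7, 0.967 for Ccl7 and Ccl12, 0.618 for Ccl6 and Ccl9 and -0.629 for Ccl5 and Ccl6.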

How the data were processed

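RNA-seq was done on 24 libraries of BMDMs, 3 cultures in each of 8 groups. The authors made cDNA with barcoded oligo-dT primers, pooled it, amplified it by PCR, sequenced it and used STAR for alignment to mm10. The deposited values are whole-number read counts per gene, without normalization. The counter, annotation and strand setting are not given in the sources used here. GENCODE M21 names 21822 of the 22165 genes counted. A further 5 summary lines took 40.6% to 52.0% of a library and were left out. Groups were taken from the sample labels.

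Genes were filtered with filterByExpr and scaled by TMM factors, and the 8 groups were fitted to all 24 libraries with edgeR 4.0.16 (glmQLFit and glmQLFTest) in R 4.3.3. The Benjamini-Hochberg adjustment covered all 11878 genes tested. The standard error is the log2 fold change divided by the square root of F. Log2 CPM used a prior count of 2. Single values were compared by two-sided exact permutation tests. Folds against a group at 0 were set against 3 reads over the group. They leave out the counting error of the other group and the spread between cultures. The 95% intervals of log2 values come from edgeR's fit and include the spread between cultures. PCR copies were counted as reads. On simulated counts for the comparison of Irg1-/- with WT at LPS 24h (11628 genes run), the test found 71 of 100 genes changed 4-fold and 7 of 100 changed 2-fold, with 6 unchanged genes called.

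The members, the lists (CC receptors, atypical and decoy receptors, other CC ligands, receptor signalling, neighbours within 100 kb, cell type markers) and the tests were chosen with earlier results of these data known. Genes outside the members were named by rule: listed genes with at least 10 normalized CPM in a group mean, and for each member the 2 genes most like it over the libraries. Heatr9 and Wfdc17 were picked among the neighbours after their values were seen, as were the examples of the signalling list. Other genes under the rule are given by count only, and some are not reported here. Alternatives were DESeq2's size factors and Wald test (DESeq2 1.42.0), TMM factors without the 20 most counted genes and the members, other filters on low counts, a replicate block, pool as a term, only the compared groups, within-pool differences, and each library left out.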

Additional observations from a re-analysis of the deposited data

How the results depend on the processing

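The number of members called moved by more than 1.5 times in 5 of the 16 comparisons. For Irg1-/- against WT at LPS 24h it was 3, and 0 with pool as a term, 0 with only the compared groups, 5 by DESeq2's Wald test, and 0 to 3 when 1 library was left out. For Unstim. it was 1, and 3 without a filter on low counts, 0 with only the compared groups, 2 by DESeq2's test, and 0 to 1 with 1 library left out. For LPS 24h->LPS 3h it was 0, and 1 without a filter and 2 by DESeq2's test. For the difference between genotypes in LPS 24h->LPS 3h against LPS 3h it was 0, and 1 by DESeq2's test. For Irg1-/- cells, LPS 24h->LPS 3h against LPS 24h, it was 4, and 2 to 4 with 1 library left out. The cause was not tested. Among 100 log2 fold changes of single members that exceeded their standard error, 859 of 881 alternative values kept direction and side of the threshold, 10 lost the call, 12 gained one and 0 reversed; of 654 values with a library left out, 24 lost the call and 0 reversed.

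With a replicate block the count at LPS 24h stayed at 3 between genotypes, and in Irg1-/- cells 7 members, not 6, were called at LPS 24h against Unstim., Ccl3 being added (log2 fold change 0.78, adjusted p = 0.046). Same-numbered cultures did not pair throughout. In 0 of 28 pairs of groups were all their correlations of deviations from the group means over 0.1 (range -0.11 to 0.34). In 1 pair every culture was most like its own number. Among the LPS 24h and LPS 24h->LPS 3h groups of both genotypes, however, the third cultures correlated at 0.187 to 0.337. In WT cells with LPS, culture number and pool coincide and cannot be told apart. The block nested in genotype was not run for comparisons between genotypes, where it leaves no common reference. DESeq2's size factors moved the median log2 fold change of all genes by -0.11 to 0.07. Depth limits Ccl17 and Ccl22, with at most 73 and 202 reads over a group, and the low Unstim. levels of Ccl12.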
